A study of Mus musculus with 4 samples.

Results

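Fibroblast growth factor (FGF) signalling was followed in D2.OR cells through 9 genes: the ligands Fgf1, Fgf2 and Fgf21, the FGF-binding protein Fgfbp1, the receptor kinases Fgfr1, Fgfr2, Fgfr3 and Fgfr4, and the kinase-less receptor Fgfrl1. The genes were taken by name from the 48432 identifiers of the deposited table, and each of the 9 names matched 1 identifier. They were proposed with the fragment counts and FPKM of the same contrast known. Their differences between groups are therefore given as a description, and no p-value is given for them. D2.OR is a single mouse mammary line, labelled as pre-malignant hyperplastic alveolar cells. Cells expressing BORG, a long non-coding RNA (2 libraries), were set against parental cells (2 libraries). Both groups were kept for 7 days in 3D culture, in DMEM with 10% FBS, 5% Cultrex basement membrane extract and 1% Pen/Strep. The data table calls the second group Empty, which was taken as parental; whether those cells carried an empty vector was not settled, so the effect of carrying a vector and that of BORG cannot be told apart.

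FGFs are secreted proteins that bind receptor tyrosine kinases on the cell surface together with heparan sulfate, a sulfated sugar chain carried by proteoglycans. Bound receptors dimerise and pass the signal through the adaptor Frs2 and through Plcg1 to the ERK and PI3-kinase pathways, and ERK in turn induces its own inhibitors of the Sprouty and Dusp families. Fgf21 belongs to the endocrine branch of the family, which binds heparan sulfate weakly and needs a Klotho protein as co-receptor. In the mammary gland, FGF signalling is known for its part in ductal branching.

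The 2 BORG-expressing libraries held 7900767 and 27131662 fragments assigned to genes, and the 2 parental libraries held 24176438 and 30322679. BORG itself could not be followed, because no identifier of the table matched it by name. Of the luminal keratins, Krt8 was at 439 and 295 FPKM in BORG-expressing and 297 and 261 FPKM in parental libraries, and Krt18 at 569 and 388 FPKM in BORG-expressing and 712 and 689 FPKM in parental libraries. Krt19 was low, at 0.558 and 0.317 FPKM in BORG-expressing and 0.0218 and 0.0485 FPKM in parental libraries. In all, 5 of 14 luminal markers reached 1 FPKM in both BORG-expressing libraries (Krt8, Krt18, Cdh1, Epcam and Gata3), against 3 of 14 in both parental libraries (Krt8, Krt18 and Gata3). Cdh1, Epcam and Gata3 were at 2.87 FPKM or less in all 4 libraries. The milk protein genes Wap and Lalba and the alveolar factor Elf5, markers of milk-producing alveolar cells, were listed at 0 in all 4 libraries. Of the other milk protein genes in the list, Csn2 was at 0.248 and 0.0928 FPKM in BORG-expressing and 0 and 0 FPKM in parental libraries. Csn3 was at 0.118 and 0.275 FPKM in BORG-expressing and 0.123 and 0 FPKM in parental libraries. No milk protein gene of the list thus reached 1 FPKM in any library. Of 7 basal and myoepithelial markers, 2 reached 1 FPKM in both BORG-expressing libraries (Krt14 and Krt17; summed level of the list 281 to 485 FPKM) and 1 in both parental libraries (Krt14; 123 to 138 FPKM). Of 8 fibroblast markers, Pdgfra, Col1a1 and Postn did so in BORG-expressing libraries (summed level of the list 79.4 to 96.4 FPKM). Pdgfra and Col1a1 did so in parental libraries (104 to 109 FPKM), and Thy1 was listed at 0 in all 4. Most of the sum was Pdgfra, at 69.4 and 58.2 FPKM in BORG-expressing and 83.0 and 94.3 FPKM in parental libraries. The leukocyte list held 1 of 6 such markers in either group, Cd68, with a summed level of 8.03 to 10.8 FPKM in BORG-expressing and 4.80 to 5.60 FPKM in parental libraries. No endothelial, adipocyte or hepatocyte marker reached 1 FPKM in both libraries of a group. The part of these marker levels in the differences below was not tested.

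Among the 9 genes, chosen with this contrast known, the differences ran in 2 directions. In BORG-expressing cells, transcripts of Fgf21 were nearly absent where parental cells had them at about the level of Fgfr1. Fgfbp1, Fgfrl1, Fgfr1 and Fgf2 were all more abundant in BORG-expressing cells. Levels between libraries are given below as CPM, counts per M fragments with TMM library scaling, and levels between genes as the deposited FPKM, which also divide by transcript length. The receptor sums below are given in FPKM, since they add up several genes. In bulk RNA, fewer cells of a type and less RNA per cell cannot be told apart. Of the 9 genes, 7 had enough fragments for edgeR's quasi-likelihood test and 5 of those passed an adjusted p of 0.05, beside 41.1% of all 15116 genes tested. These were 4 genes higher (19.9% of all genes tested) and 1 lower (21.3%). The CPM of the groups did not overlap for 6 of the 7, beside 72.6% of all genes tested. Since the genes were chosen on this contrast, nothing is read from these counts.

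**Figure D1:**
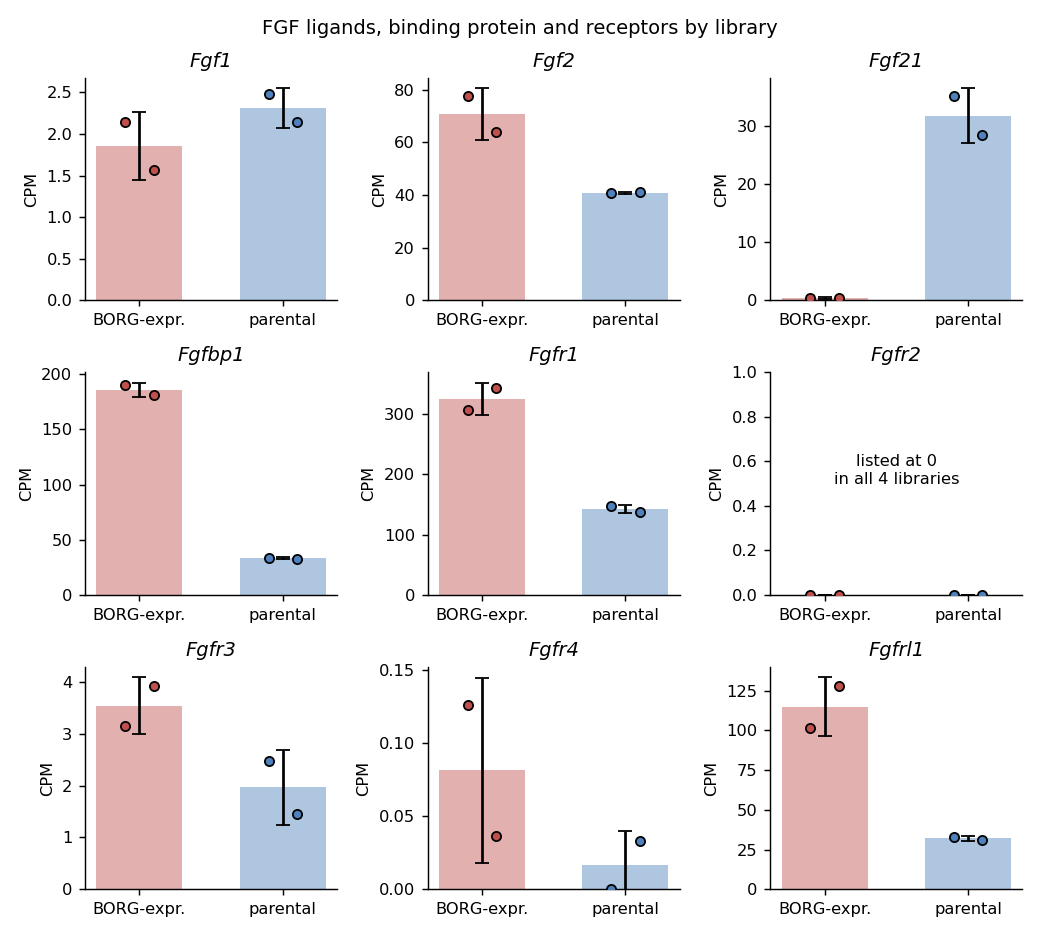
CPM of the 9 FGF genes in BORG-expressing (red) and parental (blue) D2.OR cells, one panel and one linear axis per gene, with points for libraries (replicate 1 left, replicate 2 right), bars for the mean and error bars for the SD of 2 libraries. Fgf21 is near 0 in both BORG-expressing libraries, while Fgf2, Fgfbp1, Fgfr1 and Fgfrl1 are higher there than in both parental libraries; Fgfr2 is at 0 throughout and Fgfr4 rests on at most 1 fragment per library.

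Fgf21 encodes a hormone-like FGF that liver and other tissues release under metabolic and amino acid stress. It had 0.505 and 0.364 CPM in BORG-expressing libraries, against 35.2 and 28.5 CPM in parental libraries. These values come from 4 and 10 fragments in BORG-expressing libraries and 837 and 863 fragments in parental libraries. The groups did not overlap, and even the deeper BORG-expressing library, with more fragments in all than parental replicate 1, held only 10 for this gene. The log2 fold change was -6.29 ± 0.27 (SE), and the mean CPM was 73.2-fold lower in BORG-expressing cells. The ratio of summed fragments, parental over BORG-expressing and scaled to library size, was 79.4, with an exact 95% interval of 47.2 to 146 that covers counting error only. Among the 15116 genes tested, 22 had a lower log2 fold change than Fgf21. The gene lies on the minus strand of chromosome 7 (GRCm38, 45613886 to 45615490) and overlaps no other annotated gene.

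Because the stress-responsive regulation of Fgf21 is described further down, the 250 bases before its annotated start are shown here (RefSeq, GRCm38.p6, chr7:45615491-45615740, minus strand, 5′ to 3′). The capitals mark ATTGCATCA, a C/EBP-ATF response element of the kind bound by Atf4 with C/EBP proteins, which lies from base 140 to base 132 before the start.
Fgf21 promoter: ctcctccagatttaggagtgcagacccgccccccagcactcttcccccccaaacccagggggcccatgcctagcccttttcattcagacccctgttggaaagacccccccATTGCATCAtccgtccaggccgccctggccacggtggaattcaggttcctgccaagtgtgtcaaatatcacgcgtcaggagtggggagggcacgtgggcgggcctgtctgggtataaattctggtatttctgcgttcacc

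Fgf2, or basic FGF, is a paracrine ligand that is stored on heparan sulfate in the matrix. It had 77.6 and 63.7 CPM in BORG-expressing libraries, against 40.7 and 41.0 CPM in parental libraries, a log2 fold change of 0.79 ± 0.13 (SE). Both BORG-expressing libraries lay above both parental ones, and the parental pair was the tighter of the 2. The gene (chromosome 3, 37348346 to 37410108, plus strand) overlaps Nudt6, Fgf2os and Gm42923 on the opposite strand and Gm43439 on its own strand. No source used here states whether counting used strand, and its counts may include reads of these neighbours. Fgf1, or acidic FGF, which binds every FGF receptor kinase, was scarce: 2.14 and 1.57 CPM in BORG-expressing and 2.48 and 2.14 CPM in parental libraries, from 17 to 65 fragments per library. Its log2 fold change was -0.35 ± 0.36 (SE), and its groups overlapped.

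Fgfbp1 encodes a secreted carrier protein that releases FGFs such as Fgf2 from heparan sulfate in the matrix. It had 190 and 181 CPM in BORG-expressing libraries, against 33.7 and 32.9 CPM in parental libraries. Replicates lay close together in both groups, and the mean was 5.58-fold higher in BORG-expressing cells (log2 fold change 2.48 ± 0.11 SE). Of the 15116 genes tested, 303 had a higher log2 fold change. The gene (chromosome 5, 43978858 to 43981779, minus strand) overlaps no other gene.

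Among the receptor kinases with fragments in the table, Fgfr1 had the highest level in every library. It had 307 and 344 CPM in BORG-expressing libraries, against 147 and 138 CPM in parental libraries. The mean was 2.28-fold higher in BORG-expressing cells, with a log2 fold change of 1.19 ± 0.11 (SE). Fgfrl1, which binds FGFs and heparan sulfate but lacks the kinase domain, had 102 and 128 CPM in BORG-expressing libraries, against 33.0 and 31.0 CPM in parental libraries. Its mean was 3.59-fold higher (log2 fold change 1.85 ± 0.14 SE), and 606 genes had a higher log2 fold change. For both receptors, chosen on this contrast, each BORG-expressing library lay above each parental library in CPM. Fgfr1 (chromosome 8, 25513654 to 25575718, plus strand) overlaps Gm16159 on the opposite strand, and Fgfrl1 (chromosome 5, 108692382 to 108706924, plus strand) overlaps no gene.

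Fgfr3 and Fgfr4 were low, and Fgfr2 gave no usable value. Fgfr3 had 3.15 and 3.93 CPM in BORG-expressing libraries and 2.48 and 1.45 CPM in parental libraries, a log2 fold change of 0.87 ± 0.38 (SE). It rested on 25 and 108 fragments in BORG-expressing and 59 and 44 in parental libraries. Fgfr4 had 1 and 1 fragments in BORG-expressing libraries and 0 and 1 in parental libraries, too few for a test or a fold. Fgfr2, whose epithelial isoform is the receptor for ligands such as Fgf7 and Fgf10, was listed at 0 in all 4 libraries. Its span in the annotation (chromosome 7, 130162451 to 133123350, minus strand) covers 2960900 bases and overlaps 36 genes on its own strand and 33 on the other. Of the 29 protein-coding genes inside that span, 5 (17.2%) were also listed at 0 in all libraries, beside 23.9% of the 21681 protein-coding genes of the table. Its neighbour Ate1 held 466 and 1299 fragments in BORG-expressing and 1193 and 1789 fragments in parental libraries. All 13 mitochondrial messenger RNAs, which every cell uses, were listed at 0 as well, so a listed 0 need not mean absence. Why these values are 0 was not tested. Whether Fgfr2 is silent in these cells therefore cannot be read from its value.

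Per transcript length, with Fgfr2 entering at its listed 0, the receptor transcripts summed to 134 and 98.5 FPKM in BORG-expressing libraries, against 42.7 and 37.7 FPKM in parental libraries. Over all genes, FPKM summed to 721860 and 661361 in BORG-expressing and 589336 and 620497 in parental libraries. The receptor sums were not corrected for these unequal totals. The make-up of the receptor sum, which does not depend on the total, differed too. Fgfr1 took 63.9% and 61.9% of it in BORG-expressing libraries, against 73.1% and 72.5% in parental libraries. Fgfrl1 took 35.3% and 37.4% in BORG-expressing libraries, against 25.6% and 26.5% in parental libraries. The receptor without a kinase domain thus made up a larger share in both BORG-expressing libraries than in either parental library. Fgfr3 took 0.709% and 0.753% in BORG-expressing and 1.29% and 0.923% in parental libraries.

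**Figure D2:**
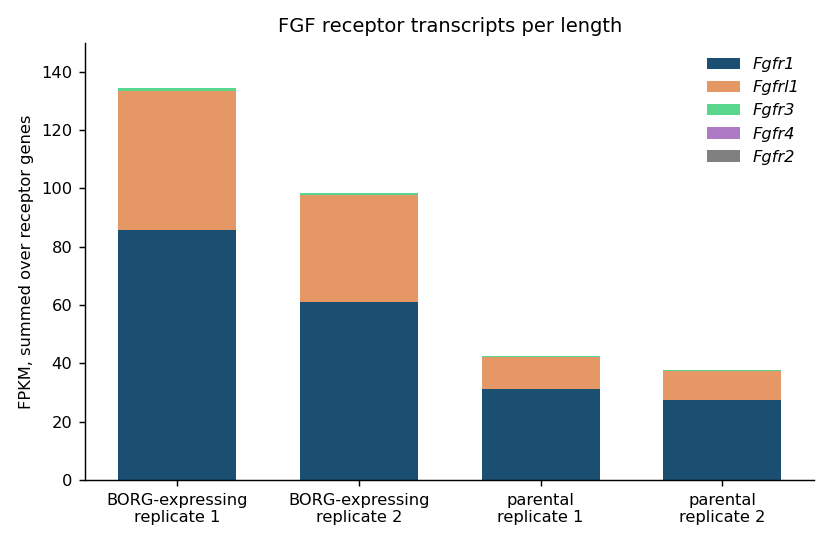
Deposited FPKM of the 5 FGF receptor genes, stacked by library (linear axis from 0) and not corrected for unequal FPKM totals. The sum is 134 and 98.5 FPKM in the BORG-expressing libraries and 42.7 and 37.7 FPKM in the parental libraries, nearly all of it Fgfr1 and Fgfrl1; Fgfr4 is too low to be seen, and Fgfr2 enters at its listed 0.

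The order of the 9 genes by FPKM showed where Fgf21 stood. In BORG-expressing cells Fgfbp1 led with 124 ± 7.71 FPKM, followed by Fgfr1 with 73.4 ± 17.7 and Fgfrl1 with 42.1 ± 7.51 FPKM (mean ± SD, n = 2). Fgf2 followed with 11.2 ± 1.60 FPKM, then Fgfr3 with 0.846 ± 0.149, Fgf1 with 0.452 and Fgf21 with 0.447 ± 0.269 FPKM, of which Fgf1 and Fgf21 did not differ beyond their spread. In parental cells Fgfr1 came first with 29.3 ± 2.74 FPKM and Fgf21 second with 26.4 ± 4.41 FPKM, and the ranges of these genes overlapped (27.3 to 31.2 FPKM and 23.3 to 29.5 FPKM). Fgfbp1 came next with 21.7 ± 0.138 FPKM, just under the lower Fgf21 value. Fgfrl1 with 10.5 ± 0.674 and Fgf2 with 7.33 ± 0.802 FPKM followed, and Fgf1 and Fgfr3, both under 1 FPKM, did not differ beyond their spread. Fgfr4 and Fgfr2 closed the order in both groups. FPKM and CPM ordered the BORG-expressing replicates differently for Fgf1, Fgf2, Fgfr1, Fgfr3 and Fgfrl1; Fgfr1 had 85.9 and 60.9 FPKM there, with the higher value in the library of lower CPM.

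Of 19 other genes of the FGF family, not all of them ligands, 17 had too few fragments to be tested, among them the Fgfr2 ligands Fgf7 and Fgf10. The 2 tested, named here after their values were seen, were both low. Fgf11, an FGF homologous factor that stays inside the cell, rose to 5.80 and 6.04 CPM in BORG-expressing libraries, against 0.462 and 0.825 CPM in parental libraries (log2 fold change 3.17 ± 0.38 SE, edgeR adjusted p = 0.00139). Fgf15, the mouse counterpart of the bile acid-regulated hormone FGF19, fell to 1.01 and 1.17 CPM in BORG-expressing libraries, against 2.73 and 2.24 CPM in parental libraries (adjusted p = 0.0478). The Fgf15 call did not hold in 10 of 13 alternatives, each of the 4 left-out libraries among them (highest adjusted p 0.198). The Klotho co-receptors of endocrine FGFs were close to absent. Klb, the co-receptor of Fgf21, had 1 and 1 fragments in BORG-expressing and 3 and 0 in parental libraries, and Kl had 0 and 0 in BORG-expressing and 3 and 0 in parental libraries.

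Of 7 tested co-receptor and binding-protein genes, 2 rose, 2 fell and 3 did not pass (57.1% called, beside 41.1% of all genes tested). Over all genes tested, 19.9% were higher and 21.3% lower, and the counts of every list are to be read against these shares. The lists, too, were chosen with earlier results of these data known, so their counts and medians are a description. The median log2 fold change was -0.28, beside 0.02 over all genes tested, and its sign turned in the alternatives (-0.39 to 0.26). Flrt3, a membrane protein known to bind FGF receptors, rose to 207 and 169 CPM in BORG-expressing libraries, against 109 and 118 CPM in parental libraries (log2 fold change 0.73 ± 0.13 SE, adjusted p = 0.00642). Ncam1, an adhesion molecule that can engage Fgfr1, fell to 45.3 and 44.5 CPM in BORG-expressing libraries, against 113 and 117 CPM in parental libraries (-1.35 ± 0.10, adjusted p = 3.01e-04). The low transcripts Flrt2 and Flrt1, singled out after their values were seen, moved in opposite directions. Flrt2 rose to 6.81 and 7.46 CPM in BORG-expressing libraries, against 0.210 and 0.759 CPM in parental libraries; its log2 fold change of 3.82 ± 0.53 was 3.18 without parental replicate 1 and 5.04 without parental replicate 2. Flrt1 fell to 0 and 0.328 CPM in BORG-expressing libraries, against 1.72 and 1.81 CPM in parental libraries; its log2 fold change of -2.92 ± 0.75 was -8.20 without BORG-expressing replicate 2, where 0 fragments remained in that group.

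Of 9 tested genes of heparan sulfate carriers, 3 rose, 0 fell and 6 did not pass in the edgeR test (33.3% called, beside 41.1% of all genes tested; median 0.17); 1 was lower at an unadjusted p under 0.05, and 0 to 3 fell in the alternatives. Sdc1, the main syndecan of epithelia, rose to 1533 and 1500 CPM in BORG-expressing libraries, against 641 and 696 CPM in parental libraries (log2 fold change 1.18 ± 0.09 SE, adjusted p = 3.33e-04). Agrn (0.85 ± 0.12) and Sdc4 (0.59 ± 0.10) also rose, Sdc4 not without parental replicate 1 (adjusted p = 0.0757) nor in the limma fits to FPKM (highest adjusted p 0.126). The enzymes that build and edit the chain were mixed: 5 of 16 tested rose, 5 fell and 6 did not pass (62.5% called, beside 41.1% of all genes tested; median 0.08). Glce, which converts glucuronic to iduronic acid in the chain, fell to 94.5 and 81.6 CPM in BORG-expressing libraries, against 288 and 321 CPM in parental libraries (-1.79 ± 0.12, adjusted p = 2.18e-04). Extl1, an exostosin-like glycosyltransferase, fell further, to 2.65 and 2.62 CPM in BORG-expressing libraries, against 42.8 and 44.6 CPM in parental libraries (-4.05 ± 0.16, adjusted p = 6.47e-05). Xylt2, which starts the chain on the core protein (1.01 ± 0.16), and the sulfotransferase Ndst2 (0.89 ± 0.13) rose.

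Inside the cell, 7 of 28 genes of the signal relay rose, 3 fell and 18 did not pass (35.7% called, beside 41.1% of all genes tested), with a median log2 fold change of 0.13. Plcg1, the phospholipase that docks on activated FGF receptors, rose to 105 and 110 CPM in BORG-expressing libraries, against 36.9 and 39.6 CPM in parental libraries (1.49 ± 0.11, adjusted p = 2.51e-04). Mapk3, which encodes ERK1, rose by 1.04 ± 0.16 (adjusted p = 0.00334) and the adaptor Frs2 by 0.72 ± 0.11 (adjusted p = 0.00345) on the log2 scale. Ptpn11, the phosphatase Shp2 that acts with Frs2, had a log2 fold change of -0.59 ± 0.10 (adjusted p = 0.00429). In the limma fits to FPKM, 2 relay genes passed, and Frs2 and Ptpn11 were not among them (highest adjusted p 0.0983 and 0.0919).

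Among transcripts that are known to follow FGF and ERK signalling, 2 of 18 rose, 10 fell and 6 did not pass (66.7% called, beside 41.1% of all genes tested), with a median log2 fold change of -0.91 beside 0.02 over all genes tested. Egr1, an immediate early transcription factor, fell to 9.34 and 12.1 CPM in BORG-expressing libraries, against 78.7 and 78.4 CPM in parental libraries (-2.84 ± 0.15, adjusted p = 1.10e-04). The ERK phosphatase Dusp6 fell to 53.0 and 49.6 CPM in BORG-expressing libraries, against 178 and 181 CPM in parental libraries (-1.81 ± 0.11, adjusted p = 1.42e-04). Spry4, a feedback inhibitor of receptor signalling, fell to 16.1 and 16.2 CPM in BORG-expressing libraries, against 45.9 and 45.8 CPM in parental libraries (-1.50 ± 0.12, adjusted p = 3.42e-04). Fosl1, an AP-1 subunit, fell by 1.96 on the log2 scale (adjusted p = 5.04e-04). All 4 were named for their small p, and their groups did not overlap, which held for 72.6% of all genes tested. The 2 that rose, Ier3 (0.90 ± 0.10) and Spred1 (0.52 ± 0.14), were named after their values were seen and did not pass in the limma fits to FPKM, where 9 genes of the list passed, all lower. The Spred1 call was also lost without BORG-expressing replicate 1 (adjusted p = 0.0805) and without parental replicate 1 (adjusted p = 0.153). Etv4 and Dusp4, 2 further members of the list chosen after their values were seen, did not pass, with log2 fold changes of 0.42 ± 0.17 and 0.24 ± 0.10. These transcripts also respond to other inputs into ERK, and receptor activity was not measured.

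**Figure D3:**
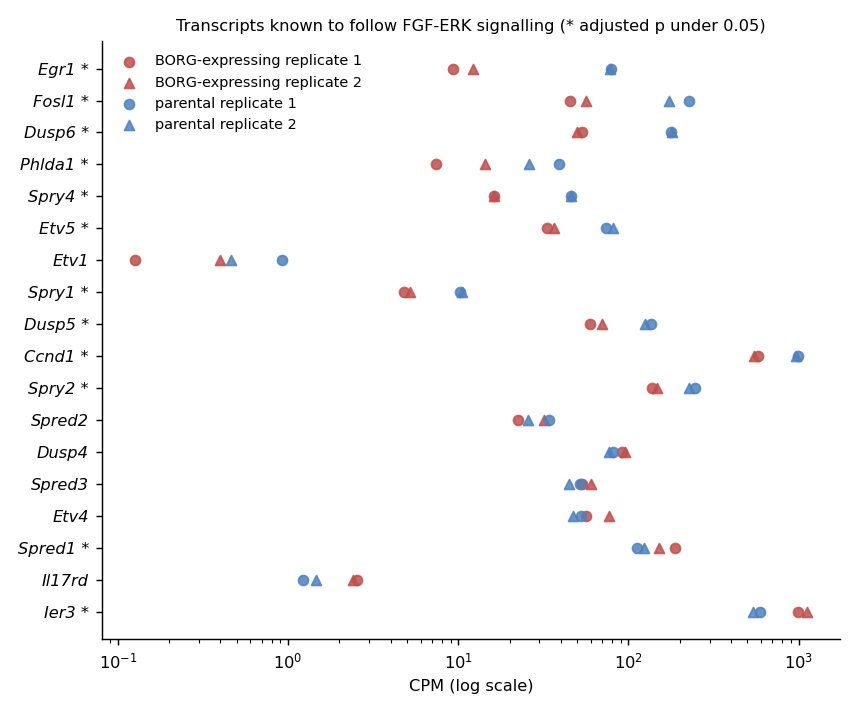
CPM (log axis) of 18 transcripts known to follow FGF-ERK signalling in BORG-expressing (red) and parental (blue) libraries, ordered by log2 fold change, with circles for replicate 1, triangles for replicate 2 and an asterisk for an edgeR adjusted p under 0.05. For the 10 asterisked transcripts from Egr1 to Spry2 the red points lie to the left, and for Ier3 and Spred1 to the right.

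Fgf21 is a known target of the integrated stress response, in which kinases sensing amino acid shortage, unfolded protein, haem or viral RNA raise Atf4, and in liver and fat it also responds to PPAR receptors. Of 20 tested genes of this regulation, 4 rose, 11 fell and 5 did not pass (75.0% called, beside 41.1% of all genes tested), with a median log2 fold change of -1.31. Atf4 fell to 232 and 215 CPM in BORG-expressing libraries, against 790 and 794 CPM in parental libraries (-1.83 ± 0.10, adjusted p = 1.08e-04). Asns, asparagine synthetase, fell to 54.3 and 54.4 CPM in BORG-expressing libraries, against 471 and 486 CPM in parental libraries (-3.14 ± 0.10, adjusted p = 6.22e-05). Chac1, a glutathione-degrading enzyme, had a log2 fold change of -4.11 ± 0.16, the pseudokinase Trib3 -2.98 ± 0.11, and the eIF2 alpha phosphatase subunit Ppp1r15a -2.50 ± 0.11, each past the threshold. Gdf15, a second stress hormone, was low, at 0.126 and 0.218 CPM in BORG-expressing and 1.18 and 0.957 CPM in parental libraries (-2.45 ± 0.62, adjusted p = 0.0215); its call was lost in 6 of 10 alternatives, each of the 4 left-out libraries among them (highest adjusted p 0.107). The 4 that rose, named after their values were seen, were the upstream kinases Eif2ak3 (PERK, 1.21 ± 0.12) and Eif2ak4 (GCN2, 0.99 ± 0.10) and the nuclear receptors Rxra (0.47 ± 0.15) and Pparg (0.42 ± 0.13). The calls of Rxra and Pparg were lost in 6 and 10 of 14 alternatives, including those without either parental replicate (highest adjusted p 0.170 and 0.225). Fgf21 itself had a lower log2 fold change than each of these genes.

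**Figure D4:**
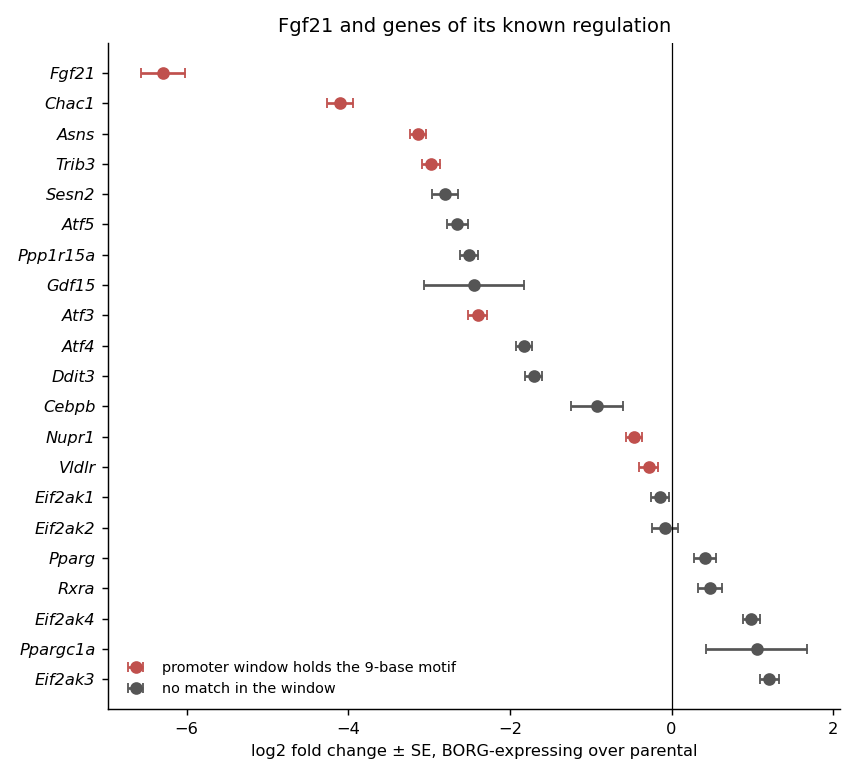
Log2 fold change, BORG-expressing over parental (bars, SE), of Fgf21 and 20 tested genes of its known regulation, with genes whose promoter window holds the response-element motif TGATGNAAN in red. Fgf21 at -6.29 lies furthest to the left; the motif is found beside genes from -4.11 (Chac1) to -0.28 (Vldlr).

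The promoter windows of RefSeq (GRCm38.p6; 250 bases before to 50 after each start) matched 7 of the 9 FGF genes and were searched on both strands. The exact element of the Fgf21 promoter, ATTGCATCA, was found in 0.192% of all 32851 windows and, among the 7 matched genes, in Fgf21 alone. Its presence in Fgf21 was taken as given in the search, so nothing is read from that match. The looser form TGATGNAAN, which contains the reverse complement of ATTGCATCA and so overlaps it, was found in 3.95% of windows and 4.50% of genes. Among the matched FGF genes the looser form was again in Fgf21 alone. Among the 22 stress-response genes it was in 6 (27.3%): Asns, Atf3, Chac1, Nupr1, Trib3 and Vldlr. That list was drawn up from genes of the integrated stress response and Fgf21 regulation, so the share is a description. The cAMP-type element TGACGTCA (1.79% of windows) and the AP-1 element TGANTCA (7.81%) were in none of the 7 FGF genes. A match describes letters in a window and does not show a site in use. The matches are printed to set the Fgf21 element beside those of the 6 stress-response genes. Of these 6, Vldlr did not pass the edgeR test (adjusted p = 0.102) and the other 5 fell. In the whole list, with or without the motif, 11 of 20 tested genes fell, beside 21.3% of all genes tested. The motif is in capitals with 8 bases on either side, on the strand that reads TGATGNAAN.
Fgf21 chr7:45615614-45615638 plus strand: tggacggaTGATGCAATgggggggt
Nupr1 chr7:126625565-126625589 plus strand: gccctgtcTGATGCAATctggccct
Chac1 chr2:119351040-119351064 minus strand: ggcaggagTGATGCAACggcaggga
Vldlr chr19:27216811-27216835 minus strand: aggagcgcTGATGCAACtattgctg
Atf3 chr1:191183428-191183452 plus strand: ggacttggTGATGCAAGtgcgagaa
Asns chr6:7693216-7693240 minus strand: cagccacaTGATGAAACttcccgca
Trib3 chr2:152344031-152344055 plus strand: cgcccggcTGATGTAAAcctgagct
Fgf21 and Nupr1 share all 9 letters of the element. Nupr1, a stress-induced chromatin protein, had a log2 fold change of -0.46 ± 0.10, beside -6.29 ± 0.27 for Fgf21. The Nupr1 call was lost in 4 of 14 alternatives, that without parental replicate 1 among them (highest adjusted p 0.437, limma on log2(FPKM + 1)). Whether the element is used in either gene was not tested.

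The genes whose pattern over the 4 libraries was most like that of Fgf21 were sought among 10088 genes with a mean of at least 1 FPKM, by the root mean square difference of log2 CPM centred on each gene's mean. They were Cdsn (0.280), Rab39b (0.300), Cth (0.305), Atp2a3 (0.354) and Csf2 (0.470). Cth, cystathionine gamma-lyase of cysteine synthesis, had 3.15 and 3.42 CPM in BORG-expressing and 151 and 156 CPM in parental libraries. Cdsn, an adhesion protein of cornified epithelium, had 2.78 and 3.31 CPM in BORG-expressing and 171 and 134 CPM in parental libraries. Csf2, the cytokine GM-CSF, had 0 and 0.0728 CPM in BORG-expressing and 7.81 and 8.35 CPM in parental libraries. All 5 were low in both BORG-expressing libraries, at 3.42 CPM or less. Cth, Cdsn and Rab39b were above the 0.505 and 0.364 CPM of Fgf21 there. For Fgfr1 the most alike were Mxi1 (0.0220), B2m (0.0244), Fyco1 (0.0248), Sap30l (0.0259) and Il4ra (0.0313), whose mean CPM differed between groups by about as much as that of Fgfr1. B2m, the light chain of MHC class I, had 464 and 513 CPM in BORG-expressing and 225 and 215 CPM in parental libraries. With 4 libraries in 2 groups, likeness of pattern is mainly likeness of the group difference.

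FGF receptor transcripts are spliced into epithelial and mesenchymal forms, a choice that the table, which counts whole genes, does not resolve. Of 7 regulators of that choice, 4 fell, 0 rose and 3 did not pass in the edgeR test (57.1% called, beside 41.1% of all genes tested; median -0.60); 1 was higher at an unadjusted p under 0.05, and 0 to 2 rose in the alternatives. Esrp1, which promotes the epithelial form, was close to absent, with 0 and 2 fragments in BORG-expressing and 17 and 32 fragments in parental libraries (adjusted p = 0.0146). Its call was lost without parental replicate 2 (adjusted p = 0.0838). Its relative Esrp2 had 2.27 and 3.68 CPM in BORG-expressing and 4.66 and 4.65 CPM in parental libraries and did not pass (adjusted p = 0.171). Ptbp1, a polypyrimidine tract-binding repressor, fell to 134 and 168 CPM in BORG-expressing libraries, against 412 and 373 CPM in parental libraries (-1.38 ± 0.14, adjusted p = 7.42e-04). Srsf6 (-0.99 ± 0.12) and Rbfox2 (-0.59 ± 0.09) fell as well, the second not in the limma fits to FPKM (highest adjusted p 0.0631).

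Of 9 genes of receptor trafficking and shedding, 1 rose, 2 fell and 6 did not pass (33.3% called, beside 41.1% of all genes tested; median -0.01). Stam, a sorting component on endosomes, fell to 134 and 112 CPM in BORG-expressing libraries, against 198 and 206 CPM in parental libraries (-0.72 ± 0.12, adjusted p = 0.00500). The sheddase Adam17 fell by 0.57 (adjusted p = 0.00810), which did not pass in 3 of 14 alternatives (highest adjusted p 0.0577). The ubiquitin ligase Cblb had a log2 fold change of 0.43 ± 0.12 (adjusted p = 0.0326), and did not pass in 7 of 14 alternatives, those without BORG-expressing replicate 2, parental replicate 1 and parental replicate 2 among them (highest adjusted p 0.294).

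**Figure D5:**
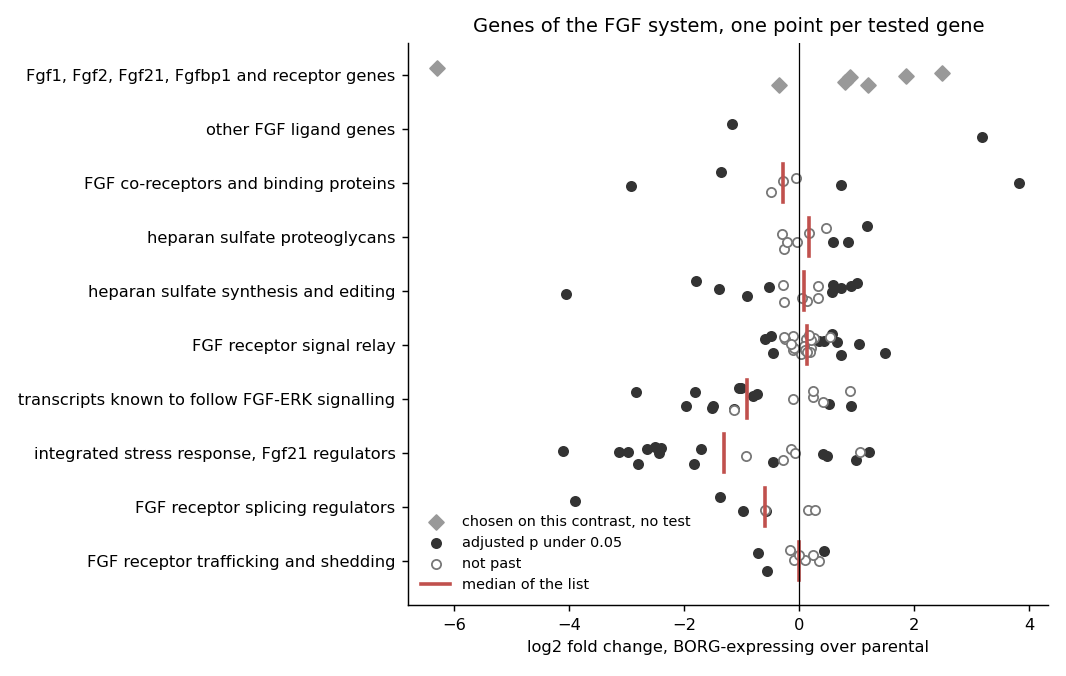
Log2 fold change, BORG-expressing over parental, of each tested gene in 10 groups of FGF-related genes (filled points, edgeR adjusted p under 0.05; open points, not past; grey diamonds, the FGF genes of the first row, chosen on this contrast and shown without a test; red bars, median of the other groups with at least 5 tested genes). The medians are -0.91 for FGF-ERK transcripts and -1.31 for the integrated stress response, and between -0.60 and 0.17 for the other groups with a bar. The genes of the rows below the first were also chosen with earlier results of these data known. The row of other FGF ligand genes includes Fgf11, which stays inside the cell.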

How the data were processed

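RNA-seq libraries came from a stranded kit for total RNA, per the labels' protocols. The submitters' processing notes name FastQC, Trim Galore, TopHat and Cufflinks and the builds GRCm38, mm10 and mm8, without versions; the strand setting is not given in the sources used here. The authors deposited estimated counts of fragments per gene and library, and FPKM, per the file headers; 2 columns of scaled fragments were not used. Replicates 0 and 1 of the table were taken for replicates 1 and 2 of the labels. Whether replicates came from separate cultures is not stated beyond the words biological duplicates, so the p-values rest on the spread among these libraries alone, which may be technical. Replicates were not copies (chi-square per degree of freedom 21.3 for BORG-expressing and 80.3 for parental, genes with at least 20 fragments).

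Identifiers were matched to GENCODE M21 names (48051 of 48432 had a symbol). Of the 164 genes of the FGF-related lists, 41 share their strand and position with another gene, Glce, Ptpn11, Ptbp1 and Rbfox2 among them. On the opposite strand 76 overlap a gene, Fosl1, Spry4, Adam17, Ptbp1 and Rbfox2 among them. Outside the lists, Cth overlaps a gene on its own strand, and Rab39b, Csf2 and B2m overlap one on the opposite strand. The counts of all these genes are uncertain to that extent. Estimated counts (2.83% not whole) were rounded and tested over all genes with edgeR 4.0.16 in R 4.3.3 (TMM, filterByExpr, quasi-likelihood F test, two-sided, Benjamini-Hochberg, threshold 0.05). The script was tested on simulated data. SE was computed as the log2 fold change over the root of F. DESeq2 1.42.0 and limma 3.58.1 (log2 FPKM plus a pseudocount of 1 or 0.1, mean of at least 0.5 FPKM) were alternatives; fold changes from limma understate low genes.

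The FGF genes and the lists were chosen with earlier results of these data known. Named list genes are up to 4 per list with the smallest p among those past the threshold with a mean of at least 1 FPKM, and Kl, Klb, Frs2, Esrp1, Esrp2, Atf4 and Gdf15. Names outside that rule, including Fgf7, Fgf10, Ate1, Nupr1, Vldlr and Atf3, were chosen after their values were seen.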

Additional observations from a re-analysis of the deposited data

How the results depend on the processing

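The FGF genes kept their direction in each of the 14 alternatives that gave a value, 13 planned and 1 chosen after seeing the data. The log2 fold change of Fgf21 ran from -6.44 to -4.25, of Fgfbp1 from 2.41 to 2.54, of Fgfr1 from 1.11 to 1.31, of Fgfrl1 from 1.67 to 1.99 and of Fgf2 from 0.55 to 0.93; Fgf1 (-0.57 to -0.10) and Fgfr3 (0.35 to 1.25) ranged widely. Of the FGF genes, 3 to 5 were called higher and 1 lower, and Fgf2 was not called in the limma fits to FPKM. Since the genes were chosen on this contrast, these calls are a description only. Over all genes, 1430 were higher and 1759 lower with limma on log2(FPKM + 1), and 1492 and 1818 with a pseudocount of 0.1, beside 3001 and 3219. Leaving out 1 library gave 2197 to 2785 higher and 2545 to 3120 lower. Upper quartile scaling gave 3372 higher and 2918 lower. The replicate block gave 1986 higher and 2204 lower; of the genes named, Fgf15, Spred1, Rxra, Pparg, Nupr1, Gdf15, Cblb and Adam17 did not pass with it (adjusted p 0.0577 to 0.139). Same-numbered libraries deviated in opposite directions (correlation -0.441 across genes), and with 2 pairs the numbers were not taken to pair the libraries; a crossed replicate block, chosen after seeing the data, gave 4619 higher and 4700 lower. Low counts limit Fgf1, Fgfr3, Fgfr4, Fgf15, Gdf15 and Esrp1. They also limit the fold sizes of Fgf21 (4 and 10 fragments) and Flrt1 (0 and 9) through the BORG-expressing libraries. Those of Flrt2 (5 and 23) and Fgf11 (11 and 25) are limited through the parental libraries. The shallowest library, BORG-expressing replicate 1, held 7900767 fragments. The median log2 fold change of co-receptor genes ran from -0.39 to 0.26, that of FGF-ERK transcripts from -0.95 to -0.76 and that of the stress-response genes from -1.56 to -1.07. The cause of these changes was not tested.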
